A study of Mus musculus with 20 samples.

Results

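The genes described here are 42 interferon-stimulated genes, taken from a named list and found as rows of the gene count tables. The tables hold 24862 gene rows in each of 12 RNA-seq libraries. The list was divided by textbook knowledge into 26 type I genes (the Ifit, Oas and Mx families, Isg15, Irf7 and others) and 16 gamma-type genes (the Gbp and Irg GTPases, Tap1, the immunoproteasome subunits, Irf1, Cxcl9 and Cxcl10). The classes name the interferon that is best known for inducing each gene, and many of these genes answer to both.

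The libraries came from TH17 cells, CD4 T cells that make interleukin-17, of mice labelled C57BL/6, in 6 groups of 2 replicates. The CNS and Ileum groups were GFP-positive TH17 cells sorted from suspensions of the central nervous system and of the ileum. The labels name neither the reporter gene, nor the state of the mice, nor their age. The Ad-control and Ad-c-Rel groups were TH17(β) cells, cultured from naive CD4 T cells in 2 ng/ml TGF-β1 and 20 ng/ml IL-6. One carried a construct for the NF-κB subunit c-Rel and the other its control, and the vector is not described. The miR-21-/- and Control groups were TH17(23) cells, cultured in IL-6, IL-1β and IL-23 at 20 ng/ml each, from knockout or control mice. Both culture mixes held antibodies against IL-4 and against interferon-γ, each at 10 µg/ml, so the 4 cultured groups share an added antibody against interferon-γ. How far it blocked interferon-γ was not tested. Nothing in the labels says that replicates came from separate animals or cultures, so p-values measure only the spread between these libraries, which may be technical.

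Type I interferons (interferon-α and interferon-β) bind the receptor IFNAR1/IFNAR2 and activate a complex that includes STAT2 and IRF9 and binds the interferon-stimulated response element (ISRE). Interferon-γ binds IFNGR1/IFNGR2 and activates factors that bind the gamma-activated site (GAS) and induce IRF1, itself a factor that binds ISRE-like sequence. Type I genes are known for blocking viral RNA, and gamma-type genes for attacking vacuolar pathogens and for loading peptides on MHC class I. In T cells interferon-γ is the hallmark cytokine of the TH1 type, and interferons are known to restrain TH17 development.

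The promoters show how far the 2 classes share these elements. RefSeq promoter stretches of the mouse build GRCm38.p6 (mm10), from 250 bases before to 50 bases after the transcript start, were matched by symbol for 35 of the 42 genes. Mx1, Oas2, Usp18, Rtp4, Zbp1, Gbp4 and Iigp1 are named only. The ISRE-type letters searched were 2 copies of GAAA with 2 bases between them, or TTTC in the same arrangement for the other strand, and the GAS-type letters were TTCNNNGAA, which reads alike on both strands. ISRE-type letters were found for 11 of 21 type I genes (52.4%) and 8 of 14 gamma-type genes (57.1%), against 3.99% of all genes with a promoter in that table and 3.44% of all promoters. GAS-type letters were found for 6 of 21 type I genes (28.6%) and 6 of 14 gamma-type genes (42.9%), against 9.55% of all genes and 8.30% of all promoters. Both motifs were found for 3 type I and 4 gamma-type genes, and the motifs can overlap, as in Bst2. Neither was found for 7 type I genes (33.3%) and 4 gamma-type genes (28.6%), against 87.1% of all genes. Among those with neither were Irf9, Tap1, Psmb9, Psmb10 and Cxcl9, each called in a comparison below. A match is a run of letters and was not tested as a binding site.

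The upstream stretches below show how the motif copies are arranged in both classes, and every gene shown carries a match. Ifit1, Oas3, Bst2, Gbp2, Irgm1, Irf1 and Psmb8 were called in a comparison, and Isg15, Igtp and Irgm2 are relatives that were not. Each stretch is 60 bases, 5′ to 3′ on the gene's own strand, with motif matches in capitals. The 4 type I stretches come first. Isg15 (chr4:156200856-156200915, minus strand) has 3 overlapping ISRE-type copies, and Ifit1 (chr19:34640769-34640828, plus strand) has a pair of separate ones. Oas3 (chr5:120777700-120777759, minus strand) and Bst2 (chr8:71537565-71537624, minus strand) complete the class.
Ifit1: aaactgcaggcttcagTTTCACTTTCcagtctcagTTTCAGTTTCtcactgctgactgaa
Isg15: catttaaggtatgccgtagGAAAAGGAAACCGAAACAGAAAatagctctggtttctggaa
Oas3: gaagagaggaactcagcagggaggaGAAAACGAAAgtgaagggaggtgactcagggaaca
Bst2: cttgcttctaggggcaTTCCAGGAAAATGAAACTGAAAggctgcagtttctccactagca

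The gamma-type stretches are those of Gbp2 (chr3:142620579-142620638, plus), Irgm1 (chr11:48871421-48871480, minus), Igtp (chr11:58199496-58199555, plus) and Irgm2 (chr11:58214888-58214947, plus), all with ISRE-type letters. Irf1 (chr11:53769898-53769957, plus) and Psmb8 (chr17:34198072-34198131, plus) show a GAS-type match alone. Igtp and Irgm2 are neighbours on chromosome 11 and each carry a GAS-type and an ISRE-type match close together.
Gbp2: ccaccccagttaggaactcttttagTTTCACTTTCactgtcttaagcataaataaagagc
Irgm1: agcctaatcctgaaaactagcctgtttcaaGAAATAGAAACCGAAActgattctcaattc
Igtp: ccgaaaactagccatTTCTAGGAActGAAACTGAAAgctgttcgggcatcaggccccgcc
Irgm2: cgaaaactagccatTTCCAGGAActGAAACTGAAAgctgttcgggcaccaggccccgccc
Irf1: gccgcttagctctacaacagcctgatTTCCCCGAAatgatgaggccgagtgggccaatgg
Psmb8: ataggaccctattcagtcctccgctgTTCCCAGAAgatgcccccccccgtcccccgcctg

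Gene counts summed to between 15421743 and 19930807 in the CNS, Ileum and Ad libraries and to between 32766097 and 36711252 in the miR-21 libraries. Levels below are gene counts scaled to the library's summed gene counts (CPM), and 3 counts correspond to 0.0817 to 0.195 CPM depending on the library. Between the replicates of a group, log2 CPM correlated across genes with r of 0.910 in CNS and 0.894 in Ileum, and of 0.989 to 0.996 in the cultures. Replicate 2 of CNS and of Ileum detected 11545 and 10771 genes, against 14224 and 13927 in replicate 1. Ileum replicate 2 had no read of 6 members (Ifit3, Mx1, Oas2, Oas3, Ifi44 and Gbp5), which allows up to 0.176 CPM each. A low-input SMART-Seq kit served for the sorted cells and a stranded TruSeq kit for the miR-21 pair, while the kit of the Ad pair is not stated plainly. Kit and source of the cells cannot be told apart where levels are set across those pairs. Reads with several alignments were counted as 0 in the miR-21 libraries and as 2.25% to 3.52% of each other table, which leaves near-identical members of the Ifit, Oas, Gbp and Irg families uncertain. In addition, 5 members overlap another annotated gene of the tables (Ifit1, Stat2, Rtp4, Gbp2 and Cxcl10), and the strand setting of the counting is not given in the sources used here.

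All 12 T cell identity genes were detected in every library, but the CNS libraries also carried RNA of other cells. Summed over 22 myeloid and microglial markers, the CNS libraries held 38953 and 42689 CPM, the Ileum libraries 5639 and 5986 CPM and the cultures 127 to 281 CPM. Summed over 13 B and plasma cell markers, the Ileum libraries held 4546 and 4411 CPM and the CNS libraries 373 and 368 CPM. Macrophages, microglia and B cells express interferon-stimulated genes too, and in bulk RNA more cells of a type and more RNA per cell cannot be told apart. In the cultures 12 to 19 of the 22 myeloid markers were detected per library, at the low sums given above. C1qb was at 0 in all 8 culture libraries, and C1qa, C1qc and Ms4a7 were at 0 in each of the Ad-control libraries.

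Across the 6 groups the CNS libraries held the highest levels of most members. The group mean CPM was highest in CNS for 36 of the 42 genes, 22 of 26 type I and 14 of 16 gamma-type. Both CNS libraries lay above all other 10 libraries for 32 members, against 12.6% of 14182 genes with enough counts, and above all 8 culture libraries for 37 members, against 19.7%. The 5 exceptions in the second count were Stat2, Oas3, Trim25, Gbp5 and Irgm2. Isg15, the ubiquitin-like protein of the antiviral response, had its highest mean in Ileum. Irgm2 had its highest mean in Ad-control, Stat2 in miR-21-/-, and Oas3, Trim25 and Gbp5 in Control.

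The type I class varied more between groups than the gamma-type class did. Taken as the mean of log2(CPM + 0.5) over the class, type I genes stood at 5.69 ± 0.16 in CNS (SD, n = 2) and 3.76 ± 0.49 in Ileum (SD, n = 2). They stood at 1.88 ± 0.03 in Ad-control, 1.95 ± 0.02 in Ad-c-Rel, 2.65 ± 0.52 in miR-21-/- and 2.96 ± 0.09 in Control (SD, n = 2 each). Gamma-type genes stood at 7.63 ± 0.24 in CNS and 5.85 ± 0.37 in Ileum, and between 4.73 ± 0.16 and 5.02 ± 0.02 in the 4 cultured groups (SD, n = 2 each). Both Ad groups held the lowest type I levels of the series, while their gamma-type levels (4.88 to 5.04 per library) lay just above those of the other cultures (4.61 to 4.86). In the order of type I means, Ad-control and Ad-c-Rel did not overlap, while miR-21-/- and Control did. Without Ifit1 the type I means of the other 25 genes were 1.94 and 1.98 in Ad-control and 1.95 and 1.95 in Ad-c-Rel and overlapped.

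**Figure D1:**
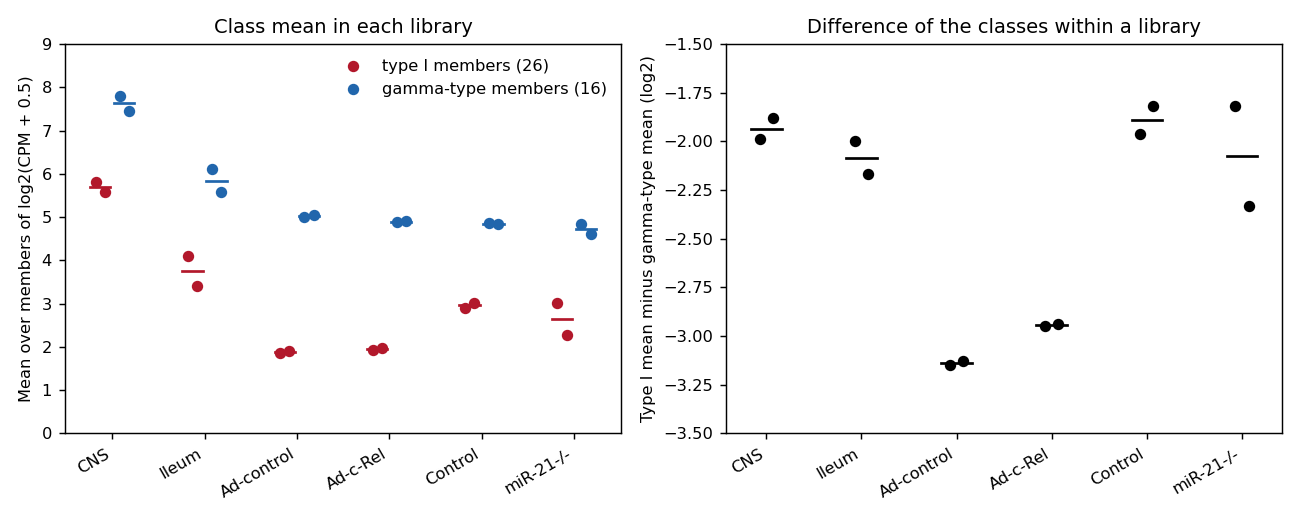
Left, mean of log2(CPM + 0.5) over the 26 type I genes and the 16 gamma-type genes, and right, the type I mean minus the gamma-type mean, with 1 point per library and a bar at each group's mean. The CNS points lie highest in both classes, and the 4 Ad libraries lie lowest for type I (1.86 to 1.97) and in the difference of the classes.

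The difference of the 2 class means, type I minus gamma-type, was used to compare the balance of the classes between libraries. It was -1.99 and -1.88 in CNS and -2.0 and -2.17 in Ileum, a small gap beside the difference in level between the tissues. It was -3.15 and -3.13 in Ad-control and -2.95 and -2.94 in Ad-c-Rel. In miR-21-/- it was -1.82 and -2.33, and in Control -1.96 and -1.82. The 4 Ad libraries did not overlap with the other 8, and Ad-c-Rel lay above Ad-control by more than the gap between replicates. The balance has no meaning in itself, since it adds genes of unlike length, and no p was computed for it.

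Part of the low type I level in the Ad libraries was a complete lack of reads. Oas1a, Oasl2, Rsad2 and Ifi44, with Cxcl9 of the gamma-type class, had no count in any of the 4 Ad libraries, which allows up to 0.0433 CPM over the group of 4 (3 counts). Below 1 CPM in all 4 Ad libraries were 10 type I genes, and 6 were so in all 4 miR-21 libraries (Ifit3, Oas2, Oasl2, Rsad2, Ifi44 and Rtp4). Above 10 CPM in every Ad library were 7 type I genes, namely Irf9, Stat2, Oas3, Bst2, Ifi35, Ddx58 and Trim25. Among gamma-type genes Iigp1, Cxcl9 and Cxcl10 stayed below 1 CPM in all 8 culture libraries, while 12 of 16 exceeded 10 CPM in all 8.

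Ifih1, the sensor MDA5 for long double-stranded RNA, separated the culture types without being absent from either. It stood at 2.85 and 3.11 CPM in Ad-control and 4.78 and 5.6 CPM in Ad-c-Rel. It reached 40.5 and 19.2 CPM in miR-21-/- and 41.8 and 36.7 CPM in Control. Ileum held 49.5 and 42.8 CPM and CNS 57.1 and 68.3 CPM. Except for miR-21-/- replicate 2, at 19.2 CPM, these cultures lay near Ileum, and all lay below CNS. Gbp5, a guanylate-binding protein that promotes inflammasome assembly, was highest in the TH17(23) cultures, with 97.9 and 62.7 CPM in miR-21-/- and 127 and 124 CPM in Control. It stood at 13.9 and 13.8 CPM in Ad-control, 28.6 and 6.6 CPM in CNS, and 8 and 0 CPM in Ileum. No test was made between the Ad and the miR-21 libraries, which differ in culture mix and may differ in kit.

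**Figure D2:**
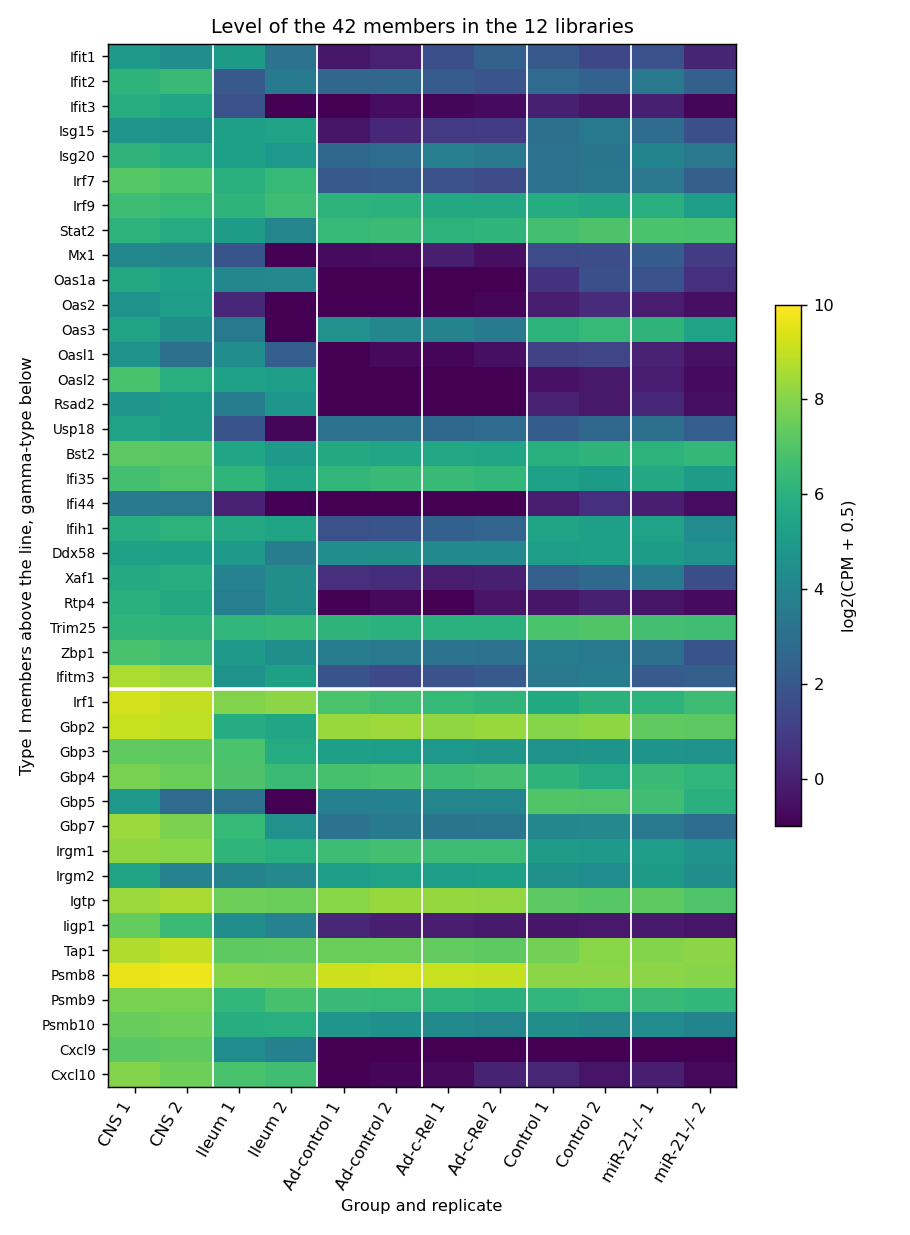
Level of each of the 42 genes in each of the 12 libraries as log2(CPM + 0.5), with type I genes above and gamma-type genes below. The columns of both CNS libraries are highest for most rows, and the Ad columns sit near the lower end for many type I rows such as Oasl2, Rsad2 and Ifi44.

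The comparison of CNS with Ileum sets cells sorted as TH17 cells from the central nervous system beside those sorted from the ileum. Of the 42 genes 12 were higher in CNS and 0 were lower in edgeR's quasi-likelihood test at an adjusted p under 0.05. The genes that rose were led by Ifitm3 (10.3-fold), Ifit2 (9.06-fold), Gbp2 (8.96-fold), Cxcl9 (7.78-fold) and Iigp1 (6.3-fold). Among all 12038 genes tested, 4.0% were called higher and 5.66% lower. The count was 4 of 26 type I genes and 8 of 16 gamma-type genes. The median log2 fold change was 1.12 for type I and 1.4 for gamma-type genes, against 0.08 for all genes tested. Without Ileum replicate 1, the library with more genes detected, 21 members were called higher, against 10.1% of all genes, and DESeq2 called 22 higher and 0 lower, against 9.73% and 10.7% of all genes. Folds are from fits scaled by trimmed mean of M-values, so they can differ from ratios of the printed CPM.

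The antiviral effectors gave the largest difference that passed the test. Ifitm3, a membrane protein that blocks virus entry by fusion, stood at 399 and 322 CPM in CNS and at 23.7 and 37.6 CPM in Ileum. Its log2 fold change was 3.36 (SE 0.283, edgeR adjusted p = 0.00303). Bst2, or tetherin, which holds budding virions on the cell, stood at 151 and 143 CPM against 44.8 and 30.3 CPM, a log2 fold change of 1.76 (SE 0.292, edgeR adjusted p = 0.0227). Neither gene's groups overlapped. Isg20, an RNA exonuclease, stood at 70.2 and 54.2 CPM against 36.1 and 28.7 CPM and did not pass the test. Rsad2, or viperin, overlapped at 26.3 and 33.5 CPM against 12.1 and 27.2 CPM. Mx1 is annotated as a transcribed pseudogene in the RefSeq table. It did not pass and stood at 17 and 14.6 CPM in CNS and 3.14 and 0 CPM in Ileum.

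Among the IFIT proteins, which bind viral RNA or its translation machinery, the members behaved unlike each other. Ifit2 stood at 71.6 and 84.8 CPM in CNS against 3.75 and 11.4 CPM in Ileum (log2 fold change 3.18, SE 0.6, edgeR adjusted p = 0.0334). Ifit1 stood at 29.2 and 20.3 CPM against 31.6 and 8.74 CPM, and its groups overlapped (0.08, edgeR adjusted p = 0.97). Ifit3 stood at 56.7 and 45.7 CPM against 2.83 and 0 CPM and did not pass the test. The call of Ifit2 was lost without CNS replicate 2 (adjusted p = 0.0722, with a range of 1.19e-09 to 0.0722 over all alternatives).

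None of the 5 OAS genes, which make or relate to the makers of the 2-5A messenger for RNase L, passed the edgeR test, and DESeq2 called 1 of them, Oas2, higher (adjusted p = 1.52e-05). Oas2 stood at 24.1 and 34.2 CPM in CNS against 0.677 and 0 CPM in Ileum, with a log2 fold change of 6.20 (SE 1.66, edgeR adjusted p = 0.0849). Oasl2 stood at 113 and 60.3 CPM against 38.3 and 33.9 CPM, and Oas1a at 49.2 and 36.1 CPM against 17.3 and 17.7 CPM. Both CNS libraries lay above both Ileum libraries for Oas2, Oasl2, Oas1a and Oas3. For Oasl1, with 23.6 and 7.91 CPM against 20.4 and 4.4 CPM, the groups overlapped.

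Zbp1, the sensor of left-handed nucleic acid, was the single RNA or DNA sensor of the class called higher. It stood at 115 and 93.5 CPM in CNS against 29.5 and 21.5 CPM in Ileum (log2 fold change 1.83, SE 0.314, edgeR adjusted p = 0.0256). That call was lost without CNS replicate 1 (0.0915) and without Ileum replicate 2 (0.0521), in a range of 3.79e-06 to 0.0915 over all alternatives. Ifih1 and Ddx58, the genes of MDA5 and RIG-I, did not pass.

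For 3 type I genes the CNS libraries did not both lie above Ileum and the fitted difference was below 0. Isg15 stood at 26.2 and 24.3 CPM in CNS and at 38 and 39.7 CPM in Ileum, the reverse order, with a log2 fold change of -0.82 (edgeR adjusted p = 0.231). Trim25, a ubiquitin ligase of the RIG-I pathway, stood at 71.8 and 70.4 CPM against 75 and 79.2 CPM. These 2 were the only members whose CNS libraries both lay below both Ileum libraries, against 34 members with both CNS libraries above. The same measures over all genes tested were 21.6% below and 38.9% above. Irf9, the DNA-binding partner of STAT2, stood at 95.8 and 82.1 CPM against 70 and 91.6 CPM, and its groups overlapped. None of these 3 passed the test.

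The other 7 type I genes lay above Ileum in both CNS libraries without passing. Usp18, which removes ISG15 and damps IFNAR signalling, stood at 41.7 and 33.2 CPM against 3.08 and 0.0587 CPM (4.35, SE 1.54, edgeR adjusted p = 0.164 and DESeq2 adjusted p = 0.00583). Irf7, the factor that amplifies interferon-α production, stood at 142 and 116 CPM against 61.9 and 82.2 CPM (0.64, edgeR adjusted p = 0.188). Xaf1 (1.45, edgeR adjusted p = 0.0814) and Rtp4 (1.55, 0.0806) came nearest to the threshold. Ifi44 stood at 10.8 and 9.78 CPM against 0.492 and 0 CPM, and its log2 fold change of 5.13 depends on the near absence of reads in Ileum. Stat2 (1.16, edgeR adjusted p = 0.205) and Ifi35 (0.78, 0.249) did not pass either.

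**Figure D3:**
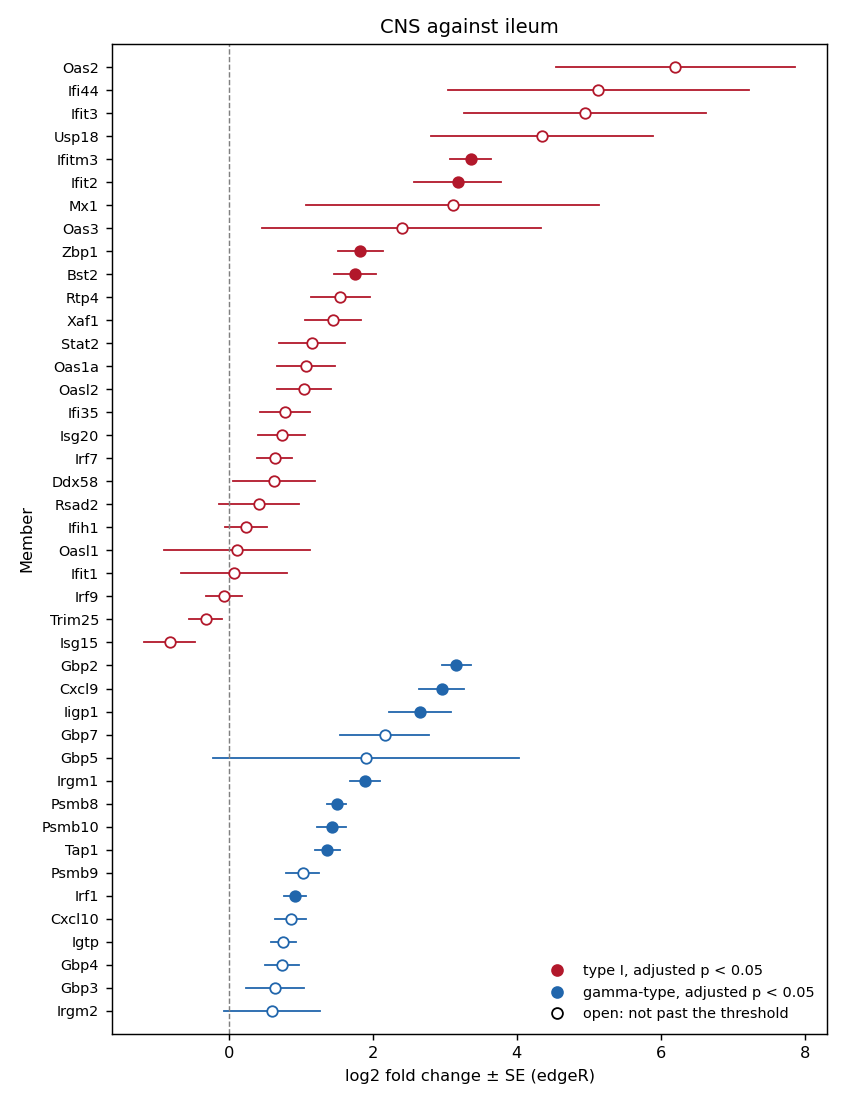
Log2 fold change of CNS over Ileum for the 42 genes, with 1 standard error of the edgeR fit, ordered within each class. Filled points mark the 12 genes called higher, open points the others, and the dashed line marks 0. All but 3 points lie to the right of 0.

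In the gamma-type class the edgeR calls ran through every role. DESeq2 called 13 of 16 gamma-type and 9 of 26 type I genes higher, against 9.73% of all genes. Among these were Gbp4, Gbp7, Igtp, Psmb9 and Cxcl10, which edgeR did not call. Irf1, the transcription factor that relays interferon-γ, stood at 604 and 505 CPM in CNS against 241 and 271 CPM in Ileum (log2 fold change 0.92, SE 0.151, edgeR adjusted p = 0.0226). That call was lost without CNS replicate 1 (0.0716), Ileum replicate 1 (0.0534) or Ileum replicate 2 (0.0521), in a range of 1.39e-06 to 0.0716 over all alternatives. Gbp2 stood at 539 and 498 CPM against 55.9 and 44.7 CPM (3.16, SE 0.198, edgeR adjusted p = 0.00132). The other 4 guanylate-binding proteins, which coat pathogen vacuoles, did not pass the edgeR test. Gbp7 came nearest, at 325 and 230 CPM against 82.6 and 23.2 CPM (2.17, edgeR adjusted p = 0.0987). Gbp3 (0.65) and Gbp4 (0.74) lay above Ileum in both CNS libraries, and Gbp5 overlapped between the groups.

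Of the immunity-related GTPases, Irgm1 stood at 292 and 267 CPM in CNS against 72.5 and 58.3 CPM in Ileum (1.89, SE 0.208, edgeR adjusted p = 0.00684). Iigp1, an effector GTPase that attacks parasite vacuoles, stood at 170 and 89.5 CPM against 21.2 and 14.4 CPM (2.65, SE 0.43, edgeR adjusted p = 0.0215), a call lost without CNS replicate 1 (0.0586, in a range of 4.42e-12 to 0.0586). Irgm2 and Igtp, which like Irgm1 regulate the effector GTPases, did not pass. Igtp stood at 324 and 393 CPM against 191 and 178 CPM (0.76, edgeR adjusted p = 0.0602). Irgm2 stood at 42 and 14 CPM against 14.6 and 17.5 CPM and overlapped.

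Of the 4 genes of peptide processing 3 rose. Psmb8, the LMP7 subunit of the immunoproteasome, stood at 805 and 848 CPM in CNS against 259 and 249 CPM in Ileum (1.50, SE 0.132, edgeR adjusted p = 0.00336). Tap1, a subunit of the peptide transporter into the endoplasmic reticulum, stood at 417 and 504 CPM against 155 and 157 CPM (1.37, SE 0.17, edgeR adjusted p = 0.0102). Psmb10, the MECL-1 subunit, stood at 175 and 190 CPM against 57.2 and 60.9 CPM (1.43, SE 0.198, edgeR adjusted p = 0.0136). Psmb9, the LMP2 subunit, lay above Ileum in both CNS libraries, at 218 and 222 CPM against 76.8 and 112 CPM, and missed the threshold (1.03, edgeR adjusted p = 0.0544).

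The chemokines Cxcl9 and Cxcl10 attract CXCR3-bearing T cells and are made mainly by myeloid and tissue cells. Cxcl9 stood at 145 and 156 CPM in CNS against 19.9 and 13.7 CPM in Ileum (2.96, SE 0.312, edgeR adjusted p = 0.00598). It had no count in any of the 8 culture libraries, which allows up to 0.0143 CPM over the 8. Cxcl10 stood at 251 and 190 CPM against 113 and 97.5 CPM (0.86, edgeR adjusted p = 0.0754) and at 0 to 0.632 CPM in the cultures.

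The calls moved beside a shift in cell markers. The edgeR counts here and of the further CNS lists below stand against 4.0% of all genes tested higher and 5.66% lower. Of 22 myeloid and microglial markers 20 were higher in CNS and 0 were lower, and their part in the result was not tested. Of 8 neutrophil markers tested 3 were higher, with summed levels of 232 and 228 CPM in CNS against 0.8 and 0.117 CPM in Ileum, where S100a9 and Ngp were among those at 0 in replicate 2. For B and plasma cells 7 of 12 markers tested were lower, with Ms4a1 at 0 in both CNS libraries and detected in both Ileum libraries. Pax5 was at 0 in both CNS libraries and also in Ileum replicate 1. Of 12 T cell identity genes 4 were lower, with sums of 5561 and 5664 CPM against 6778 and 6613 CPM. Of 14 TH17 core genes 11 were lower, with sums of 1498 and 1383 CPM against 12654 and 13554 CPM. Dendritic cell markers summed to 559 and 643 CPM in CNS and 942 and 953 CPM in Ileum, but the single markers were mixed. Of 9 tested, 7 had a log2 fold change above 0 and 2 below, with 1 called higher and 1 lower.

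Of the 28 other genes of the interferon pathway that were tested, 4 were higher and 4 lower. Ifngr1, the ligand-binding chain for interferon-γ, stood at 1328 and 1128 CPM in CNS against 3088 and 3044 CPM in Ileum (-1.52, edgeR adjusted p = 0.00212), and Ifngr2, its signalling partner, was called higher in CNS (1.27, edgeR adjusted p = 0.03). The call of Ifngr2 was lost whichever of the 4 libraries was left out, at adjusted p from 0.0523 to 0.141. Ifnar1 (-0.71, edgeR adjusted p = 0.0573) and Ifnar2 (0.62, 0.207) did not pass. Tmem173, which encodes the DNA-response adaptor STING, was higher (1.75, edgeR adjusted p = 0.00583), and Stat3 (-1.71, 0.00238) and Jak2 (-3.19, 0.00869) were lower.

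The interferon genes themselves gave no call. Ifng stood at 183 and 180 CPM in CNS and 210 and 171 CPM in Ileum (-0.27, edgeR adjusted p = 0.473). Ifnb1 had 95 and 0 counts in CNS and 2 and 74 counts in Ileum, so single libraries carried nearly all of its reads. Socs1, a feedback inhibitor, did not pass (0.18, edgeR adjusted p = 0.761). Among 27 further type I response genes 9 were higher and 0 lower, led by smallest p by Ly6a (2.75), Lgals3bp (2.28), Slfn1 (2.51) and Samhd1 (1.20). Among 20 further gamma-type genes 3 were higher and 0 lower, the peptide-loading genes Tapbp (1.09) and Tap2 (1.10) and the MHC class II activator Ciita (2.17). Tap2 was not called without CNS replicate 2 or Ileum replicate 2, nor Ciita without either of these or CNS replicate 1, in the fit over all 12 libraries or with a replicate block.

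The c-Rel comparison asks what a c-Rel construct does in TH17(β) cells. Rel, which encodes c-Rel, stood at 57.5 and 61.9 CPM in Ad-c-Rel against 10.8 and 7.02 CPM in Ad-control, as its label says. The members higher with c-Rel were 3, Ifit1 (8.87-fold), Isg20 (1.87-fold) and Ifih1 (1.8-fold), all of the type I class. Those lower were 5, by 1.25-fold to 1.44-fold, namely Oas3, Irf1, Psmb10, Irf9 and Psmb9. Of the 42 genes 30 had enough counts to test. The calls were 3 higher and 2 lower of 17 type I genes, and 0 higher and 3 lower of 13 gamma-type genes. Among all 11711 genes tested, 8.16% were called higher and 6.12% lower. The median log2 fold change was -0.13 for the tested type I and -0.10 for the tested gamma-type genes, against -0.01 for all genes tested.

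Ifit1 stood at 2.67 and 4.69 CPM in Ad-c-Rel (47 and 77 counts) against 0.324 and 0.502 CPM in Ad-control (5 and 10 counts). Its log2 fold change was 3.15 (SE 0.421, edgeR adjusted p = 9.35e-05). All 4 libraries stayed below the 8.74 CPM of the lower Ileum library. Isg20 stood at 12.5 and 10.5 CPM against 5.9 and 6.82 CPM (0.90, SE 0.166, edgeR adjusted p = 0.00177). Ifih1, whose levels are given above, had a log2 fold change of 0.85 (SE 0.221, edgeR adjusted p = 0.0181). None of these 3 genes' groups overlapped. The promoter stretches differ among them, with the ISRE-type pair printed above for Ifit1, 1 ISRE-type copy after the transcript start for Ifih1 and a GAS-type match for Isg20.

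The other antiviral genes did not form a block with Ifit1. Isg15 stood at 1.31 and 1.4 CPM against 0.259 and 0.702 CPM (1.46, edgeR adjusted p = 0.0564), while Ifit2 stood at 4.1 and 3.23 CPM against 5.77 and 5.62 CPM (-0.57, edgeR adjusted p = 0.0802). Oas3 stood at 14.8 and 11.5 CPM against 23.1 and 16.8 CPM (-0.53, SE 0.157, edgeR adjusted p = 0.0359). Irf9 stood at 51.2 and 48.9 CPM against 68.1 and 64.9 CPM (-0.35, SE 0.0867, edgeR adjusted p = 0.0134). Stat2, the partner of IRF9, stood at 69.6 and 72.3 CPM against 81.8 and 88.6 CPM (-0.21, edgeR adjusted p = 0.125).

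In the gamma-type class the lower genes were Irf1 and a pair of immunoproteasome subunits. Irf1 stood at 82.9 and 72.4 CPM in Ad-c-Rel against 119 and 101 CPM in Ad-control (-0.44, SE 0.093, edgeR adjusted p = 0.00483). Psmb9 stood at 68.5 and 61.8 CPM against 87.1 and 82.5 CPM (-0.32, SE 0.0854, edgeR adjusted p = 0.0206). Psmb10 stood at 18.8 and 16 CPM against 26.1 and 22.2 CPM (-0.41, SE 0.123, edgeR adjusted p = 0.0387). Psmb8 stood at 544 and 516 CPM against 576 and 604 CPM and did not pass. Gbp3, at 28.5 and 27.1 CPM against 36.1 and 34.7 CPM, came nearest among the rest (-0.29, edgeR adjusted p = 0.0652). Over the 30 tested genes both Ad-c-Rel libraries lay below both Ad-control libraries for 17 and above for 5, against 37.3% and 21.4% of all genes tested.

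**Figure D4:**
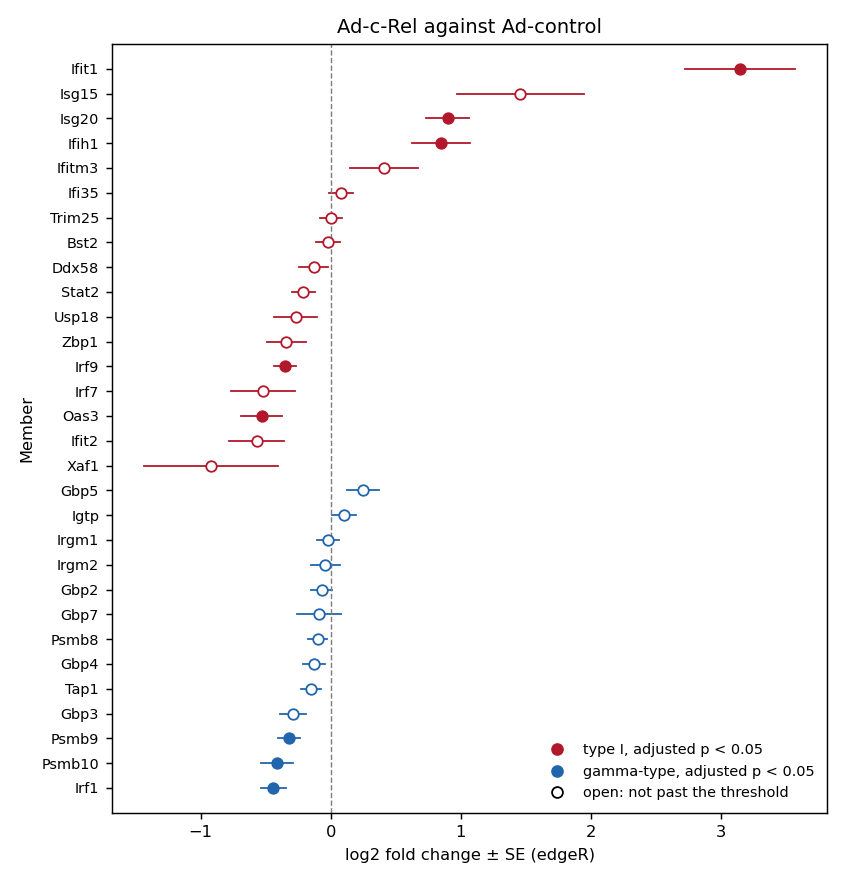
Log2 fold change of Ad-c-Rel over Ad-control for the 30 genes tested, with 1 standard error of the edgeR fit, ordered within each class. Filled points mark the 3 genes called higher and the 5 called lower, Ifit1 stands farthest from the dashed line at 0, and most other points lie close to it.

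The lower calls were small and not stable. With Ad-control replicate 1 left out the lower calls were lost, while Ifit1 and Isg20 were still called. With Ad-c-Rel replicate 2 left out the lower calls other than Irf1 were lost. Each of these fits had a single library in that group, and smaller shares of all genes were called there too. With libraries scaled to the T cell identity genes instead, the split was 3 higher and 13 lower, against 4.59% and 19.0% of all genes, and with DESeq2 2 higher and 3 lower, against 5.73% and 3.89% of all genes. In 1 fit over all 12 libraries, which shares the spread of the CNS and Ileum replicates, none of the 8 was called, and of all 13815 genes 18 were called higher and 1 lower. Ifih1 was not called with DESeq2 (adjusted p = 0.125, in a range of 0.00253 to 1), nor when either Ad-control library or replicate 2 of Ad-c-Rel was left out.

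Of the 12 members with too few counts to test, Cxcl10 had 2 and 9 counts in Ad-c-Rel and 0 and 1 in Ad-control. The summed counts of 11 and 1 gave a ratio of CPM of 11.4, with an exact 95% interval of 1.66 to 492. That interval covers counting error only, and most of the reads came from Ad-c-Rel replicate 2. Oasl1 and Rtp4 had 4 counts against 2 each, a ratio of 2.08 (0.298 to 23). Of the rest, 5 had no count in any of the 4 libraries, as given above.

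Of 24 other pathway genes tested 5 were higher and 3 lower with c-Rel, against 8.16% and 6.12% of all genes tested. The same shares belong beside the counts of further genes and markers in this pair. Irf5, a factor of innate sensing, was higher (0.91, edgeR adjusted p = 2.3e-05), as were Ifngr2 (0.27) and Socs1 (0.29, edgeR adjusted p = 0.0494) with small changes. Socs3 (-0.52) and the adaptor gene Myd88 (-0.42) were lower. Ifngr2 and Socs1 were not called when replicate 1 of Ad-control or replicate 2 of Ad-c-Rel was left out, nor under either other scaling of the libraries. Ifng had 58 and 47 counts against 43 and 13 (0.98, edgeR adjusted p = 0.139), and Ifnb1 had none in the 4 libraries.

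Of 22 further type I genes 0 were higher and 3 lower: the partners Dtx3l (-0.52) and Parp9 (-0.53), and Pml (-0.36), the nuclear body scaffold, which was not called when replicate 1 of Ad-control or replicate 2 of Ad-c-Rel was left out. Of 18 further gamma-type genes 5 were higher, among them the checkpoint ligand gene Cd274 (0.95) and Psme2 (0.39), and 3 lower, among them Gbp6 (-0.85) and Gbp8 (-0.41). Of 12 T cell identity genes 4 were higher and 1 lower, and of 14 TH17 core genes 10 were higher, with sums of 10470 and 10565 CPM against 6373 and 6720 CPM. Their part in the result was not tested.

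The miR-21 comparison asks what loss of the microRNA miR-21 does in TH17(23) cells. Mir21a, its precursor gene, had 0 and 0 counts in miR-21-/- and 25 and 20 in Control. No member passed the edgeR test, with 0 of 41 called in either direction and a smallest adjusted p of 0.125. Of all 13428 genes tested, 0.00% were called either way. At an unadjusted p under 0.05 there were 2 members higher and 6 lower, against 9.60% and 11.4% of all genes. DESeq2 called 0 members higher and 4 lower (Ifitm3, Gbp2, Gbp7 and Oasl1), against 2.76% and 3.87% of all genes. With the replicate number as a block, which the labels do not give as a pairing, 5 members were called higher and 10 lower, against 17.0% and 18.8% of all genes. The median log2 fold change was -0.23 for type I and 0.02 for tested gamma-type genes, against -0.02 for all genes tested.

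The 4 genes that DESeq2 called come from both classes, and their adjusted p over all alternatives ran from 9.07e-05 to 0.363 (Gbp2), 0.000145 to 0.354 (Ifitm3), 0.000452 to 0.724 (Gbp7) and 0.000751 to 0.582 (Oasl1). Gbp2 stood at 159 and 150 CPM in miR-21-/- against 257 and 280 CPM in Control (-0.73, SE 0.141, edgeR adjusted p = 0.125 and DESeq2 adjusted p = 0.00883). Ifitm3 stood at 3.99 and 4.58 CPM against 9.84 and 11.7 CPM (-1.26, SE 0.256, edgeR adjusted p = 0.129 and DESeq2 adjusted p = 0.00373). Gbp7 stood at 10.4 and 6.9 CPM against 16.6 and 17.5 CPM (-0.93, SE 0.213, edgeR adjusted p = 0.135 and DESeq2 adjusted p = 0.0157). Oasl1 stood at 0.517 and 0.214 CPM against 1.7 and 1.99 CPM (-2.27, SE 0.461, edgeR adjusted p = 0.129 and DESeq2 adjusted p = 0.0169). For each of these 4 both knockout libraries lay below both Control libraries. Over the 41 tested genes that was so for 12, and the reverse for 3, against 30.6% and 23.7% of all genes. Gbp5 (-0.60) and Zbp1 (-1.01) also had an unadjusted p under 0.05, and Isg20 (0.58) and Gbp4 (0.41) did so in the other direction.

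The 2 knockout libraries differed from each other most in the type I class. Of type I genes 24 of 26 lay lower in replicate 2 than in replicate 1, against 13 of 16 gamma-type genes and 9170 of all 13428 genes tested. The median log2 difference was -0.73 for type I genes, -0.17 for gamma-type genes and -0.16 for all genes tested. Between the Control replicates the type I median was 0.20. Ifit1 shows it, with 2.9 and 0.61 CPM in the knockout libraries and 3.74 and 2.12 CPM in Control. Xaf1, a pro-apoptotic interferon-response gene, stood at 11.4 and 2.53 CPM against 4.56 and 6.35 CPM, and Mx1 at 4.14 and 1.37 CPM against 2.42 and 2.51 CPM. In all 3, replicate 1 and replicate 2 lay on different sides of at least 1 Control library.

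Set against the Control libraries, knockout replicate 1 lay above both for 12 of the 26 type I genes and below both for 8, with a median log2 difference of 0.08, against 39.2%, 35% and 0.02 over all genes tested. Knockout replicate 2 lay above both for 2 and below both for 21, with a median of -0.65, against 29.8%, 55.5% and -0.17 over all genes tested. Without knockout replicate 1, edgeR called 1 member higher, Irf1, and 6 lower, Gbp5, Gbp7, Ifih1, Isg15, Oasl1 and Zbp1, against 4.83% and 4.79% of all genes. Without knockout replicate 2 it called 0 in either direction, and the type I median was 0.07. The type I median below 0 in the knockout therefore rests on replicate 2.

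**Figure D5:**
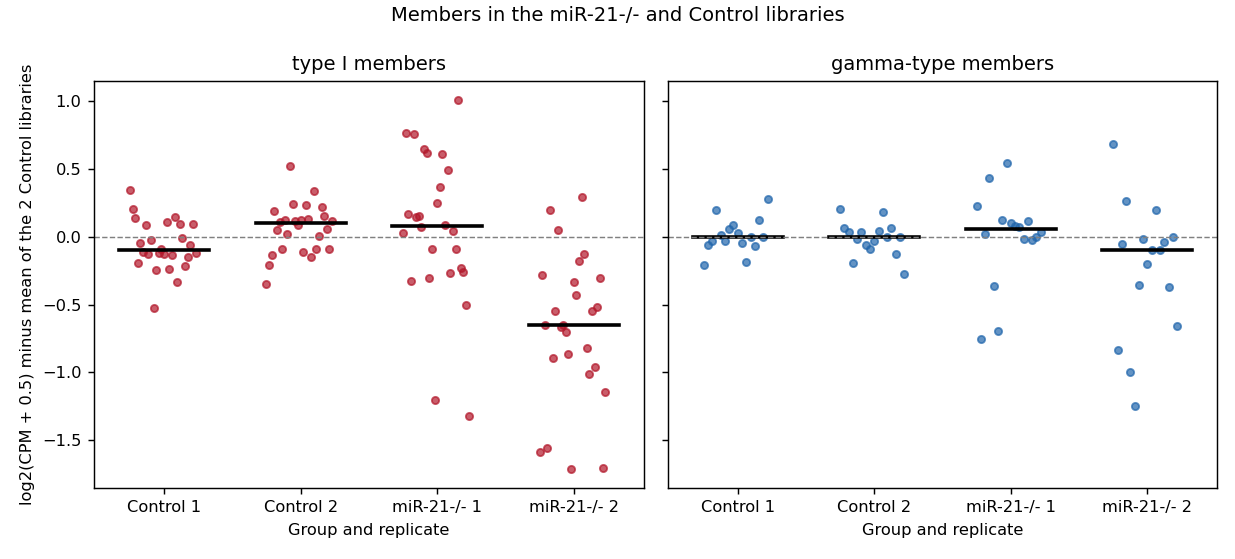
Log2(CPM + 0.5) of each of the 42 genes in each miR-21-/- and Control library, minus the mean of the 2 Control libraries, with type I genes on the left, gamma-type genes on the right and a bar at each library's median. The type I points of replicate 2 lie mostly below 0 (median -0.65), and those of replicate 1 lie around 0 (median 0.08).

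The pathway genes gave no edgeR call either, with 0 of 25 tested, while DESeq2 called 2 of 24 higher. This and the DESeq2 counts below stand against 2.76% of all genes higher and 3.87% lower with DESeq2. Ifng had 46 and 33 counts in miR-21-/- and 164 and 73 in Control (-1.41, edgeR adjusted p = 0.184). Ifnar1 (0.09), Ifnar2 (0.38, edgeR adjusted p = 0.172), Ifngr1 (0.25), Ifngr2 (-0.22) and Socs1 (-0.39) did not pass. Of the further genes, edgeR called 0 of 24 type I and 0 of 19 gamma-type genes, and DESeq2 called 3 of 23 type I genes lower and 0 of 18 gamma-type genes. TH17 core genes summed to 2661 and 2000 CPM in the knockout against 5058 and 4129 CPM in Control, with 0 of 13 called by edgeR and 4 of 13 called lower by DESeq2. Myeloid markers summed to 127 to 156 CPM in the 4 libraries.

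Read across the 3 pairs, which share no control library, single members had unlike values. Ifitm3 had a log2 fold change of 3.36 in CNS over Ileum and -1.26 in miR-21-/- over Control, where edgeR did not call it (adjusted p = 0.129), and it was not called in the Ad pair. Gbp2 had 3.16 in CNS over Ileum, -0.73 in miR-21-/- over Control with no edgeR call (adjusted p = 0.125), and no call in the Ad pair, where it stood at 285 and 311 CPM against 316 and 335 CPM. Irf1 was higher in CNS (0.92) and lower with c-Rel (-0.44). Psmb10 was likewise called in both, at 1.43 and -0.41. Ifit1 was called with c-Rel alone, at 3.15, and its difference between CNS and Ileum was 0.08. Whether these effects differ between pairs was not tested.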

How the data were processed

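RNA-seq gave 12 mouse libraries in 6 groups of 2, and the 8 ATAC-seq samples are not analysed here. The deposited files hold counts per gene made by the authors. Per the submitters' processing notes the builds and tools are mm10, DESeq2, HTSeq 0.11.0, TopHat2 2.1.0, Bowtie2, HOMER, SAMtools, Trim Galore 0.4.4 and CASAVA 1.4, with their roles not given. The annotation is not given in the sources used here. Summary lines that name no gene (14.7% to 26.1% of each table) stayed out of library sizes and tests. The 4 libraries of a comparison were fitted alone with edgeR 4.0.16 (R 4.3.3) after filterByExpr, with TMM scaling, the quasi-likelihood test and Benjamini-Hochberg adjustment over all genes tested, at 0.05. Standard errors are the log2 fold change divided by the square root of F, so they restate that test. CPM divide by the summed gene counts. Intervals cover counting error only. The code was tested on simulated data with the same set spread for every comparison. That spread is not the one of these libraries, so the run does not show how the tests perform here. Alternatives were DESeq2 1.42.0, no TMM, scaling to T cell identity genes, no low-count filter, 1 fit over all 12 libraries, a replicate block and each replicate left out. All members could be named. Of the other lists, the core genes Ifng, Ifnb1, Ifnar1, Ifnar2, Ifngr1, Ifngr2 and Socs1 were named with up to 4 called genes of smallest p, and some list genes are not reported here. NK and CD8 T cell markers summed to 5.77 to 27.6 CPM per library, and 0 of 2 epithelial markers tested were called between CNS and Ileum. Members, classes and lists were chosen with earlier results of these data known.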

Additional observations from a re-analysis of the deposited data

How the results depend on the processing

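No member's difference that passed the threshold changed direction under any alternative run. Of the 12 members called higher in CNS, all 12 remained called with DESeq2 (22 called), no filter (24), the fit over all 12 libraries (21), no TMM (15) and T cell scaling (19), and leaving out 1 library gave 9 to 21 (21 without Ileum replicate 1). None was called lower. Under T cell scaling the medians there were 1.62 (type I) and 1.89 (gamma-type), as the median of all genes moved from 0.08 to 0.57 (0.28 without TMM), and they were 0.94 to 1.41 and 1.24 to 1.4 with 1 library left out. With c-Rel, the fit over all 12 libraries called 0 higher and 0 lower, DESeq2 called 3 lower and T cell scaling 13 lower. The calls over all genes in these fits are given above. Leaving out 1 library could end the lower calls, as described above. Medians with c-Rel were 0.04 (DESeq2), -0.19 (no TMM), 0.02 (no filter), 0.00 (all 12) and -0.27 (T cell scaling) for type I, over 17 to 26 genes as each fit kept them, and over the 17 genes tested in the report -0.13 (DESeq2), -0.15 (no filter) and -0.14 (all 12). They were -0.15 (no TMM) and -0.24 (T cell scaling) for gamma-type genes. The class medians ran from -0.17 to -0.09 and from -0.16 to -0.05 with 1 library left out. The median of all genes moved from -0.01 to -0.15 under T cell scaling in that pair and from -0.02 to 0.11 in the miR-21 pair. For miR-21, DESeq2 called 4 lower, leaving out 1 library gave 0 to 1 higher and 0 to 6 lower, and the medians ran from -0.87 to 0.07 (type I) and from -0.03 to 0.06 (gamma-type). Counts over all genes moved too, with 1210 higher and 1330 lower for CNS with DESeq2 against 482 and 681. The cause was not tested. Same-numbered replicates are not stated to be paired. Their deviations correlated at 0.108, 0.043 and 0.563 for the CNS, Ad and miR-21 pairs. A replicate block called 15 members higher for CNS, against 4.44% of all genes higher and 6.44% lower. It called 4 higher and 8 lower with c-Rel, against 12.7% and 11.2% of all genes. For miR-21 it called 5 higher and 10 lower, against 17.0% and 18.8% of all genes. With 2 libraries a group, members near 3 counts are limited by depth.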
